A study of Homo sapiens with 12 samples.

Results

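The accessibility of 10 genes of the heat shock response was described in HEK293T cells, a human embryonic kidney line, after the expression of the t(4;11) fusion proteins. The genes were HSPA1A, HSPA1B, HSPA6, HSPA8, HSPH1, DNAJB1, HSP90AA1, HSP90AB1, HSPD1 and HSPE1. They were chosen by symbol, as the cytosolic and mitochondrial members of the response, and were 10 of the 52889 gene entries counted. No measured value was a criterion, but the choice was made with earlier results of these data known. All 10 passed the filter on low counts, which asked for a group mean of more than 2 normalized counts, and were tested.

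In ATAC-Seq, the Tn5 transposase cuts open DNA in isolated nuclei, so that more reads arise from accessible chromatin. Each of 4 groups had 3 biological replicates, 12 samples in all. The empty vector pSBTet-GP was present in Mock cells. Cells of day 0 (d0) were a stably transfected population with constitutive MLL-AF4. At day 3 (d3), cells with constitutive MLL-AF4 had also expressed inducible AF4-MLL for 48 h under 1 µg/ml doxycycline. Day 28 (d28) cells are labelled with constitutive MLL-AF4 alone, and 25 days had passed since the induction of AF4-MLL was ended. The AF4-MLL vector was added by a transient transfection of MLL-AF4 cells, followed by a short selection with blasticidin. The sources used here do not say whether Mock cells received doxycycline or on which day they were harvested. AF4-MLL itself, its transfection, the selection and doxycycline therefore cannot be told apart at d3. The MLL-AF4 vector was of another type (pSBbi), and its cells were selected with puromycin and cultured for several weeks before the second transfection. MLL-AF4 and these differences cannot be told apart in any comparison with Mock cells.

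Heat shock proteins are molecular chaperones that bind unfolded proteins and help them to fold or to be degraded. In the cytosol, HSP70 proteins work with J-domain proteins of the HSP40 class, which deliver clients, and with nucleotide exchange factors such as HSP110, and they pass some clients on to HSP90. In the mitochondrial matrix, HSP60 forms a folding chamber that is closed by HSP10. Under heat or proteotoxic stress the transcription factor HSF1 binds heat shock elements, which are inverted repeats of the unit nGAAn, and strongly raises the transcription of many of these genes. Their promoters are kept open in unstressed cells, with a paused polymerase at the HSP70 genes.

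Mock samples had totals of 353430 to 501324 deposited counts, against 648466 to 715327 for d0, 930067 to 1186209 for d3 and 1058754 to 3539937 for d28. Mitochondrially encoded genes took 26.4% to 27.0% of the counts in Mock cells, 42.0% to 45.6% at d0, 32.8% to 44.1% at d3 and 63.6% to 68.5% at d28. The 10 heat shock genes together held 262 to 950 counts per sample, so single genes rested on few reads. Normalized counts are counts scaled with TMM factors to a common effective depth, the mean over all 12 samples. Of 6 markers of HEK293 cells, none was at 0 throughout, and their summed level was 20.1 to 26.0 per kb in all samples. The summed level of 6 blood markers was 2.93 to 6.04 per kb, and CD3E, HBB and LYZ were at 0 in at least 1 sample.

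The inducible HSP70 gene HSPA1B (ENSG00000204388, chr6:31827738-31830254 in RefSeq GRCh38.p14) was the only member whose change passed the test. Its normalized counts were 26.9, 20.6 and 29.5 in Mock cells and 32.3, 35.5 and 38.8 at d0. They were 58.5, 58.2 and 51.5 at d3 and 33.8, 37.3 and 34.9 at d28. All d3 samples lay above all samples of the other groups, and the d0 and d28 samples overlapped each other but not the Mock samples. The means were 25.7 ± 4.58 (SD, n = 3) in Mock cells, 35.6 ± 3.25 at d0, 56.1 ± 3.96 at d3 and 35.3 ± 1.78 at d28.

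HSPA1B was 2.22-fold more accessible at d3 than in Mock cells, with a 95% interval from 1.64-fold to 3.0-fold. In a bulk sample, more cells with open chromatin at the gene and more open chromatin per cell cannot be told apart. The number of DNA copies of the gene, on which counts also depend, was not measured. The log2 fold change was 1.15 (SE 0.22, edgeR quasi-likelihood test, adjusted p = 1.28e-04 over 27579 genes). It stayed past the threshold in 21 of 22 alternative settings, with an adjusted p from 9.81e-06 to 0.0635, and failed where counts were scaled by library sizes only. With mitochondrial sequences left out of the scaling, the log2 fold change of HSPA1B was 1.16 with an adjusted p of 2.39e-04. From d3 to d28 the accessibility of HSPA1B fell by 0.67 on the log2 scale (SE 0.17, adjusted p = 0.0301). This second call was close to the threshold and held in 12 of 22 alternative settings. These include leaving out each Mock or d0 sample, which are not compared here, library sizes only and the pair HSPA1A + HSPA1B as a single entry. Where a compared sample was left out, the call held only without d3 replicate 3 (adjusted p = 0.0498). It was lost with DESeq2 (adjusted p = 0.473), RLE factors, TMM without mitochondrial sequences, filterByExpr and no filter, and also without d3 replicate 1 or 2 and without any d28 replicate, with an adjusted p of up to 0.329 and a log2 value between -0.72 and -0.61 for the samples left out in turn.

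Between d0 and d3, HSPA1B had a log2 fold change of 0.66 (SE 0.20), which did not pass the test (adjusted p = 0.0707). With TMM factors computed over all entries it was 0.72 and passed, with an adjusted p of 0.0295. For d0 against Mock cells the log2 value was 0.49 (adjusted p = 0.553) and for d28 against Mock cells 0.48 (adjusted p = 0.391). The d28 and d0 levels were close, with a log2 difference of -0.01 and a 95% interval from -0.43 to 0.41.

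**Figure D1:**
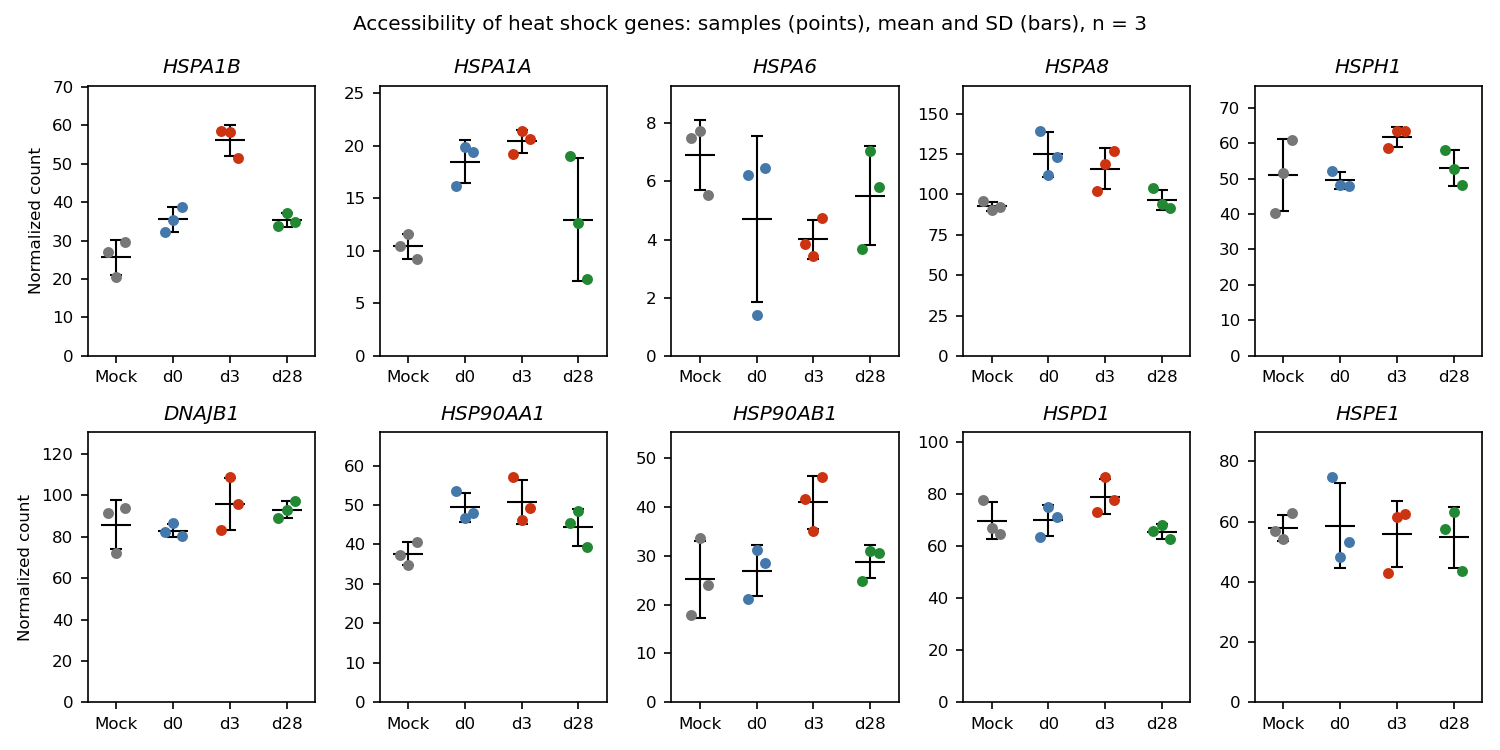
Normalized count of each of the 10 heat shock genes (y axis, from 0) in Mock, d0, d3 and d28 cells (x axis). Points are samples, and bars give the mean and SD of 3 replicates. For HSPA1B all d3 samples (51.5 to 58.5) lie above all other samples, whereas HSPE1 overlaps in every pair of groups.

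HSPA1A (ENSG00000204389, chr6:31815543-31817942) encodes the same HSP70 protein as HSPA1B or nearly so, and lies next to it in the major histocompatibility complex. Its counts were low, between 5 and 36 per sample. Normalized counts of HSPA1A were 10.5, 11.6 and 9.23 in Mock cells and 16.2, 19.9 and 19.4 at d0. They were 19.2, 21.4 and 20.6 at d3, and 19.0, 12.7 and 7.28 at d28. The d0 and d3 samples all exceeded the Mock samples. The d28 samples lay below all d3 samples and overlapped those of d0 and Mock cells. At d3 the log2 fold change against Mock cells was 0.94 (SE 0.35), which did not pass the test (adjusted p = 0.203).

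Reads of the near-identical pair could have been divided between the genes by the alignment, so the sum was also examined. HSPA1B held between 64.0% and 82.8% of the counts of the pair in each sample. The summed normalized count was 36.1 ± 3.45 (SD, n = 3) in Mock cells, 54.0 ± 5.0 at d0, 76.5 ± 3.90 at d3 and 48.3 ± 5.45 at d28. When HSPA1A + HSPA1B were fitted as a single entry, in an alternative added after the data were seen, the pair was 2.13-fold more accessible at d3 than in Mock cells (log2 1.09, SE 0.19, adjusted p = 9.81e-06). It fell by 0.62 on the log2 scale from d3 to d28 (SE 0.15, adjusted p = 0.0109). The other comparisons of the pair did not pass, with d0 against Mock cells at 0.59 (adjusted p = 0.310).

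The regulatory sequence of both genes is shown because the pair carried the changes. The 250 bases before the RefSeq start were taken 5′ to 3′ on the gene's strand, at chr6:31827488-31827737 for HSPA1B and chr6:31815293-31815542 for HSPA1A, both on the plus strand. Capitals mark a 2-unit heat shock element (GAANNTTC or TTCNNGAA) and the TATA box (TATAAA).
HSPA1B: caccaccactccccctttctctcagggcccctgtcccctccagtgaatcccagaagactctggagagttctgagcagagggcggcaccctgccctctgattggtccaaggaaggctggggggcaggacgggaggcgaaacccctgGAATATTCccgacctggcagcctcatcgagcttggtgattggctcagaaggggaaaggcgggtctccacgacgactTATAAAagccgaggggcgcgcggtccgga
HSPA1A: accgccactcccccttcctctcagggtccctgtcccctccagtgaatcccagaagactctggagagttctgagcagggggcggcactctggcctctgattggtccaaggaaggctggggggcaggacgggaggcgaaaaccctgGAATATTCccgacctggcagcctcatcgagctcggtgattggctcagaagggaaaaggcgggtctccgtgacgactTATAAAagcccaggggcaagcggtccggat
The windows differed at 14 of 249 aligned bases, an identity of 94.4%, with 2 gap positions. Each held GAANNTTC once, starting at -105 in HSPA1B and at -106 in HSPA1A, and TATAAA at -29 and -30. Each also held CCAAT on the opposite strand at 2 places.

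HSPA6 (ENSG00000173110, chr1:161524540-161526894) encodes HSP70B′, which is strictly stress-inducible. It had only 1 to 10 counts per sample, and its near-identical neighbour HSPA7 could have taken some of its reads. Normalized counts of HSPA6 were 7.48, 7.74 and 5.54 in Mock cells and 3.85, 3.42 and 4.75 at d3. These did not overlap, with the d3 samples lower, but the log2 difference of -0.79 (SE 0.57) did not pass the test (adjusted p = 0.647). Its 95% interval from -1.91 to 0.33 leaves a gain of the size seen for HSPA1B outside. HSPA7 was at 4.06 ± 2.23 (SD, n = 3) in Mock cells and 2.14 ± 0.896 at d3, also without a call (adjusted p = 0.736).

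HSPA8 (ENSG00000109971, chr11:123057489-123062462) encodes HSC70, the constitutive HSP70 of the cytosol, and had the highest counts of the set. Its normalized counts were 95.8, 90.2 and 92.3 in Mock cells and 139, 112 and 123 at d0. They were 102, 119 and 127 at d3, and 104, 94.2 and 91.7 at d28. The d0 and d3 samples lay above the Mock samples, and the d28 samples below those of d0. The log2 fold change was 0.43 (SE 0.15) for d0 against Mock cells, 0.32 (SE 0.15) for d3 against Mock cells and -0.35 (SE 0.13) for d28 against d0. None of these passed the test (adjusted p = 0.255, 0.353 and 0.185).

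HSPH1 (ENSG00000120694, chr13:31134973-31162388) encodes HSP110, the exchange factor of HSP70. Its normalized counts were 40.4 to 60.9 in Mock cells, 47.9 to 52.3 at d0, 58.5 to 63.4 at d3 and 48.1 to 58.0 at d28. The d3 samples lay above those of d0 and d28 but overlapped the Mock samples, and the log2 fold change at d3 was 0.29 against Mock cells (95% interval -0.07 to 0.65, adjusted p = 0.585). DNAJB1 (ENSG00000132002, chr19:14514769-14560391), the HSP40 that delivers clients to HSP70, stayed between 72.2 and 108.7 in all samples. Its log2 fold changes in the 6 comparisons lay between -0.05 and 0.21, with no adjusted p under 0.633, and the d28 samples lay above those of d0 without overlap. At d3 its difference from Mock cells had a 95% interval from -0.13 to 0.47, so a change as large as that of HSPA1B was outside the interval. This holds for the counts of the whole entry, and the stretch counted is not given. DNAJB1 spans 45623 bases and HSPA1B 2517, and a change at the promoter alone was not tested.

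Neither cytosolic HSP90 gene passed the test. HSP90AB1 (ENSG00000096384, chr6:44246194-44253883) encodes the constitutive HSP90 beta. Its normalized counts were 18, 33.5 and 24.0 in Mock cells and 21.2, 31.2 and 28.5 at d0. They were 41.6, 35.1 and 46.0 at d3, and 24.8, 30.9 and 30.6 at d28. All d3 samples were above all others, as for HSPA1B. HSPA1A, HSPA1B and HSP90AB1 all lie on chromosome 6, and whether other genes of that chromosome shifted likewise was not tested. The log2 fold change was 0.67 (SE 0.24) for d3 against Mock cells, 0.61 (SE 0.23) for d3 against d0 and -0.54 (SE 0.19) for d28 against d3. None passed the test (adjusted p = 0.164, 0.197 and 0.289).

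HSP90AA1 (ENSG00000080824, chr14:102080742-102139749), the stress-inducible HSP90 alpha, had 37.4, 34.8 and 40.6 normalized counts in Mock cells and 53.5, 46.8 and 47.9 at d0. Its counts were 57.0, 46.2 and 49.1 at d3, and 45.4, 48.5 and 39.3 at d28. The d0 and d3 samples were above the Mock samples and overlapped each other. Against Mock cells its log2 fold change was 0.41 (SE 0.22) for d0 and 0.45 (SE 0.21) for d3, neither of which passed (adjusted p = 0.569 and 0.367). Whether the HSP90 genes differed from each other in their response was not tested.

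HSPD1 and HSPE1 encode the mitochondrial chaperonin HSP60 and its lid HSP10. They are transcribed in opposite directions (HSPD1, ENSG00000144381, chr2:197486584-197500274, minus strand, and HSPE1, ENSG00000115541, chr2:197500379-197503449, plus strand), and 104 bases lie between their first starts. Normalized counts of HSPD1 were 64.6 to 77.8 in Mock cells, 63.5 to 75.2 at d0, 73.1 to 86.4 at d3 and 62.6 to 68.2 at d28. Those of HSPE1 were 54.1 to 62.8, 48.2 to 74.7, 43.1 to 62.6 and 43.7 to 63.3. The groups of HSPE1 overlapped throughout, and the d28 samples of HSPD1 lay below its d3 samples (log2 difference -0.25, adjusted p = 0.620). Fitted together, HSPD1 + HSPE1 had log2 fold changes between -0.13 and 0.08 over the 6 comparisons. At d3 against Mock cells their 95% interval ran from -0.19 to 0.34, so a change of the size seen for the HSP70 pair was outside it. This too holds for the counts of the entries, and a change at the shared promoter alone was not tested. The interval between the starts, chr2:197500275-197500378 read on the plus strand, is shown because both genes share it.
HSPD1-HSPE1 interval: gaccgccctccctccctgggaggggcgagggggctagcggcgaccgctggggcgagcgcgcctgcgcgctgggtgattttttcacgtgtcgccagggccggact

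For d0 against Mock cells 0 of 10 members passed with edgeR and 0 with DESeq2, beside 0.609% of all tested genes, and 2 of 10 had an unadjusted p below 0.05, beside 9.65%. For d3 against Mock cells 1 of 10 passed with either tool, beside 1.27%, and 5 of 10, all higher at d3, had an unadjusted p below 0.05, beside 11.3% of all genes in either direction and 6.45% higher at d3. These were HSPA1A, HSPA1B, HSPA8, HSP90AA1 and HSP90AB1. The count of 5 was not stable: it was 3 with RLE factors, DESeq2, filterByExpr and without Mock replicate 2, 2 with library sizes only, and up to 6 in other settings. For d28 against Mock cells 0 of 10 passed with edgeR and 0 with DESeq2, beside 1.45%, and 1 of 10 had an unadjusted p below 0.05, beside 12.5%.

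Between the days, 0 of 10 members passed with edgeR and 0 with DESeq2 for d3 against d0, beside 0.91% of all genes, and 2 of 10 had an unadjusted p below 0.05, beside 11.4%. For d28 against d3, 1 of 10 passed with edgeR and 0 with DESeq2, beside 0.37%, and 2 of 10 had an unadjusted p below 0.05, beside 8.83%. For d28 against d0, 0 of 10 passed with either tool, beside 1.35%, and 1 of 10 had an unadjusted p below 0.05, beside 12.6%. The comparisons with Mock cells share the Mock samples, and those between days share the samples of a day.

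The samples of the groups did not overlap for 4 of 10 members at d0 against Mock cells, all higher at d0, beside 14.4% of all genes in either direction. At d3 against Mock cells this was 6 of 10, with 5 higher at d3, beside 16.5% in either direction. For d28 against Mock cells this was 1 of 10, beside 17.7%. For d3 against d0, d28 against d3 and d28 against d0 it was 3, 5 and 2 of 10, beside 17.1%, 14.3% and 18.2%. Of these members 3, 0 and 1 were higher at the later day. Of the 8330 genes whose normalized count averaged 20 or more, 3.16% passed for d3 against Mock cells, a larger share than over all tested genes. The shares given for unadjusted p-values and for samples without overlap were over all tested genes. They were not matched for count, and most members averaged 20 or more.

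Against Mock cells, the members had a median log2 fold change of 0.05 for d0, 0.31 for d3 and 0.11 for d28, where the median of all genes was 0.00, 0.03 and 0.03. It was 0.16 for d3 against d0, -0.21 for d28 against d3 and -0.03 for d28 against d0, beside 0.02, 0.01 and 0.04 for all genes. Scaling by library sizes only moved the medians of the members against Mock cells to -0.40 at d0, -0.06 at d3 and -1.26 at d28, but those of all genes moved with them, to -0.45, -0.34 and -1.32. The summed normalized count of the members was 463 ± 20.1 (SD, n = 3) in Mock cells, 521 ± 18.5 at d0, 581 ± 34.9 at d3 and 490 ± 25 at d28. Replicates of a member differed about as counting noise would give, and their chi-square divided by its 8 degrees of freedom was 0.323 for HSPA1B, the lowest, and 1.78 for HSPE1, the highest.

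**Figure D2:**
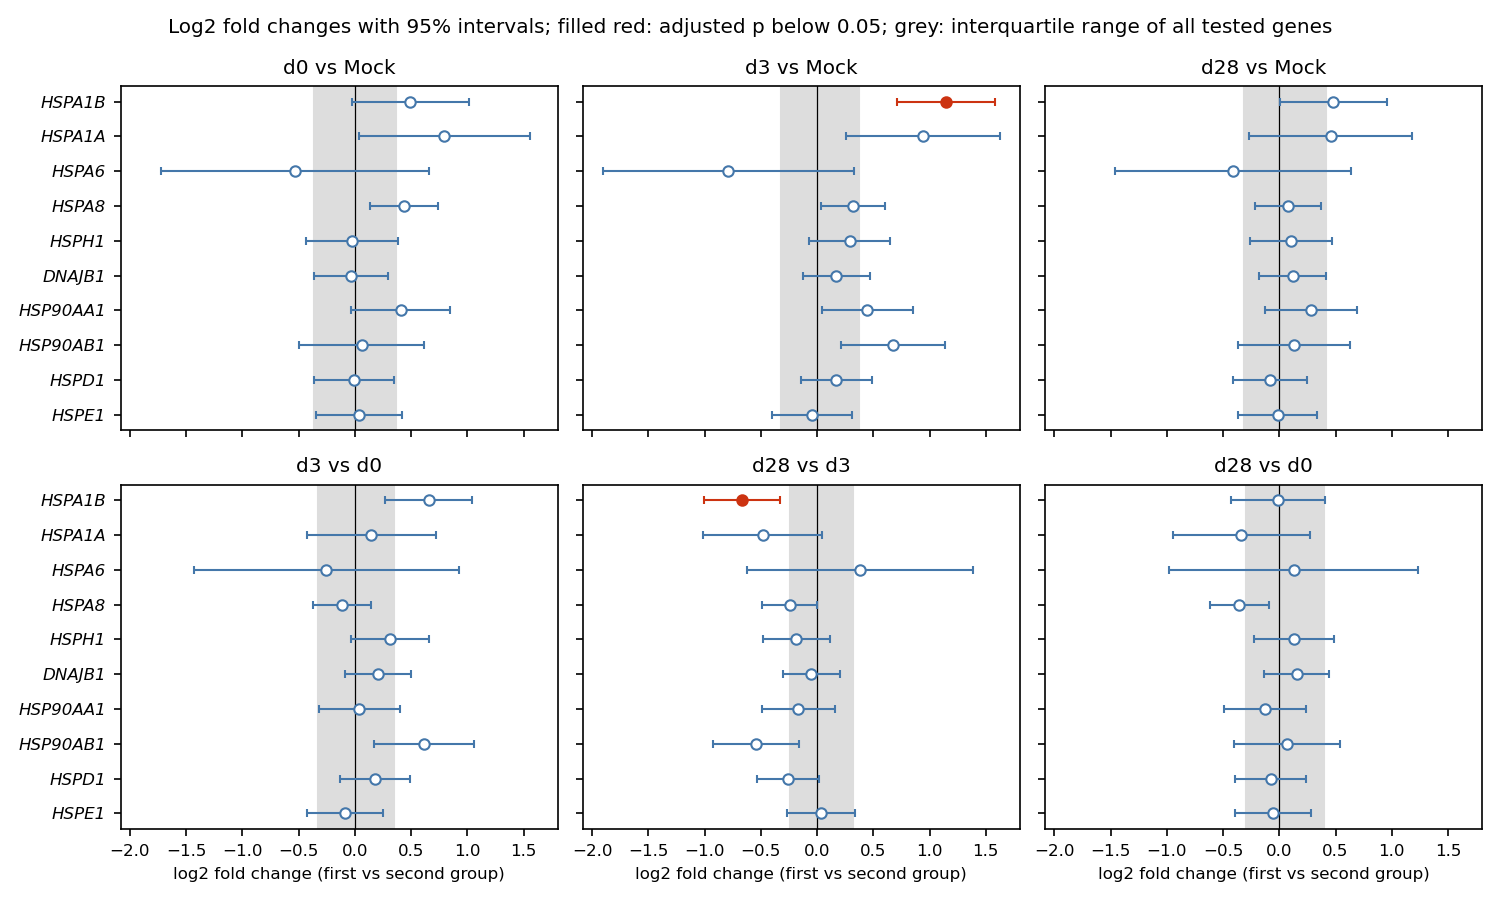
Log2 fold change (x axis) of each heat shock gene (y axis) in the 6 comparisons, with 95% intervals. Filled red points passed an adjusted p of 0.05, and the grey band is the interquartile range of all 27579 tested genes. HSPA1B passed for d3 against Mock cells (1.15) and for d28 against d3 (-0.67), and no other point is filled.

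Levels of different genes were compared as normalized counts per kb of the RefSeq gene span, averaged over the 12 samples. HSPA8 stood at 21.6 per kb, HSPE1 at 18.5 and HSPA1B at 15.2. HSPA1A followed at 6.49, HSPD1 at 5.19, HSP90AB1 at 3.96, HSPA6 at 2.25, HSPH1 and DNAJB1 at 1.96 and HSP90AA1 at 0.772. The ranges over samples of neighbours in this order overlapped, except that every sample of DNAJB1 (1.58 to 2.38 per kb) was above every sample of HSP90AA1 (0.590 to 0.966). The median protein-coding gene had 0.468 per kb, and the members lay between the percentiles 62.7 and 99.5 of 16891 protein-coding genes. These percentiles were not matched for length. The median span of those genes was 29219 bases, whereas HSPA8, HSPE1, HSPA1B and HSPA1A spanned 4974, 3071, 2517 and 2400 bases. Of the members only DNAJB1 and HSP90AA1 had spans above that median.

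The order depends on the length taken for a gene. RefSeq gives HSP90AA1 a span of 59008 bases from a far upstream start, but 6303 bases from its nearest start, and DNAJB1 45623 and 3169 bases. With the shortest spans, HSP90AA1 stood at 7.23 per kb and DNAJB1 at 28.2, the highest of the set. The interval on which reads were counted for a gene is not given in the sources used here. The long spans also overlap other genes, with TECR beside DNAJB1 and WDR20 beside HSP90AA1.

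**Figure D3:**
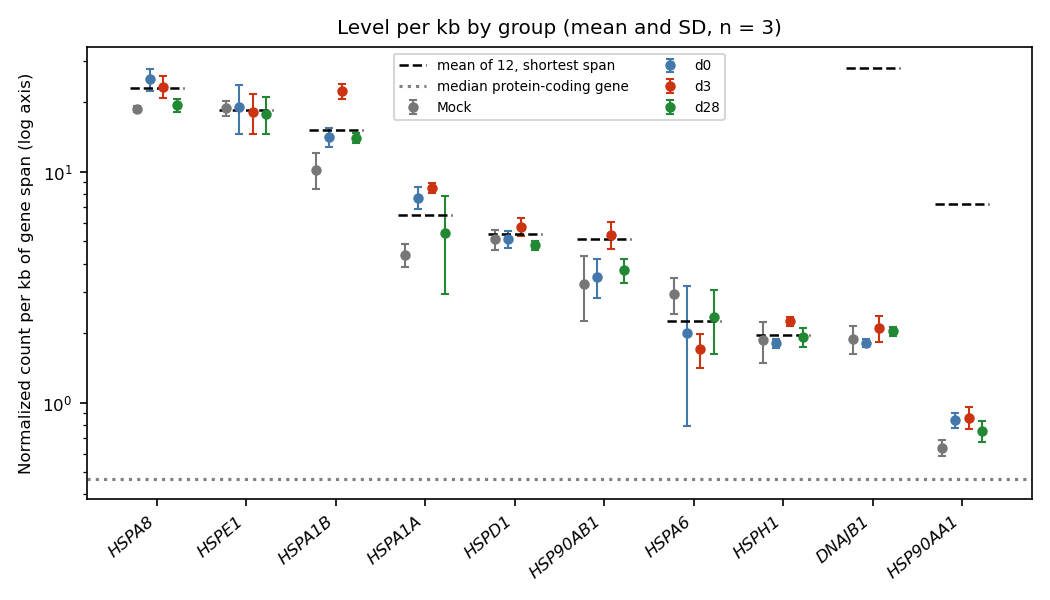
Normalized count per kb of gene span (y axis, log scale) of the heat shock genes (x axis), as mean and SD of 3 replicates per group in colour. Dashed bars give the mean of the 12 samples with the shortest RefSeq span, and the dotted line the median protein-coding gene (0.468 per kb). DNAJB1 and HSP90AA1 move most between the spans, from 1.96 to 28.2 and from 0.772 to 7.23 per kb.

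Promoter windows of RefSeq, from 250 bases before to 50 bases after a start, were searched on both strands for heat shock elements. All 10 members had a window, 16 windows in all. The 3-unit element (GAANNTTC followed by NNGAA, or its reverse complement, which contains both 2-unit forms) occurred in a window of 5 of 10 members, HSPA6, HSPA8, HSP90AA1, HSP90AB1 and HSPD1, beside 0.608% of 27305 genes. GAANNTTC occurred in 8 of 10 members, beside 8.21% of genes, and TTCNNGAA in 5 of 10, beside 9.46%. TATAAA was present in 2 of 10, HSPA1A and HSPA1B, beside 14%, and CCAAT in 5 of 10, beside 39.7%. HSPH1 and HSPE1 held no heat shock element in their windows, which says only that these letters were not there. The windows of HSPA1A and HSPA1B, whose sum changed, held GAANNTTC but not the letters of the 3-unit element. Elements with an imperfect unit, or with units set apart, were not searched for, so these genes may hold longer elements.

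The elements are shown for the members in which they were found, as the 250 bases before the start that carries them, with 2-unit and 3-unit elements in capitals. The windows lie at chr1:161524290-161524539 (plus strand) for HSPA6, chr11:123062137-123062386 (minus strand) for HSPA8, chr6:44247693-44247942 (plus strand) for HSP90AB1, chr14:102087045-102087294 (minus strand) for HSP90AA1 and chr19:14518398-14518647 (minus strand) for DNAJB1.
HSPA6: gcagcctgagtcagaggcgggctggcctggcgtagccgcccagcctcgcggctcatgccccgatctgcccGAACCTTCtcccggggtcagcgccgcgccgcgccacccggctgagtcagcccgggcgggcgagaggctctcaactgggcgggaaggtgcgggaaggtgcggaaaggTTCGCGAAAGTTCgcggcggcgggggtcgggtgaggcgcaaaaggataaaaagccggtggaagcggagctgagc
HSPA8: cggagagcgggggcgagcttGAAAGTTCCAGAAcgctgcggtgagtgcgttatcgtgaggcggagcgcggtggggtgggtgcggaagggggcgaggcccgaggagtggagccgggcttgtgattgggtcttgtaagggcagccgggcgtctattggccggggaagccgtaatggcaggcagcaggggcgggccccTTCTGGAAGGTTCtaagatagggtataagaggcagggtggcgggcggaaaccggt
HSP90AB1: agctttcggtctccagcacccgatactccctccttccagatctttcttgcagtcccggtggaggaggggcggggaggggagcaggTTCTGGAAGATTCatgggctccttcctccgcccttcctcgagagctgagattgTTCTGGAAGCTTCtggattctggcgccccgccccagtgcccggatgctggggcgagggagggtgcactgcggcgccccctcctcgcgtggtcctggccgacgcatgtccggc
HSP90AA1: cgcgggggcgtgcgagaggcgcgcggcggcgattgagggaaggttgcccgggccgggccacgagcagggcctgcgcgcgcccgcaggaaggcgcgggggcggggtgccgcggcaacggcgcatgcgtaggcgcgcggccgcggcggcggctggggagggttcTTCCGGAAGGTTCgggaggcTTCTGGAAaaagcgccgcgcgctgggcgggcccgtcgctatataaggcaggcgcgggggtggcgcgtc
DNAJB1: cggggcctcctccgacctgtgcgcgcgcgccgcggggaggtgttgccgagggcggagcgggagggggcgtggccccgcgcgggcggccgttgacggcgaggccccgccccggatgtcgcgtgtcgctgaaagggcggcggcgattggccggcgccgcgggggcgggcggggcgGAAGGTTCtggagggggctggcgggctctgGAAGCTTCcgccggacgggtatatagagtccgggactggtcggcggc
HSPA8 held a 3-unit element at -230 and another at -55, and HSP90AB1 at -165 and -112. HSPA6 had it at -74 and HSP90AA1 at -88. DNAJB1 had 2-unit elements at -77 and -47. In HSPD1 overlapping 3-unit elements were found at chr2:197500068-197500085 on the minus strand, within the gene and upstream of its second start.
HSPD1 element: TTCTGGAAAGTTCTGGAA

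**Figure D4:**
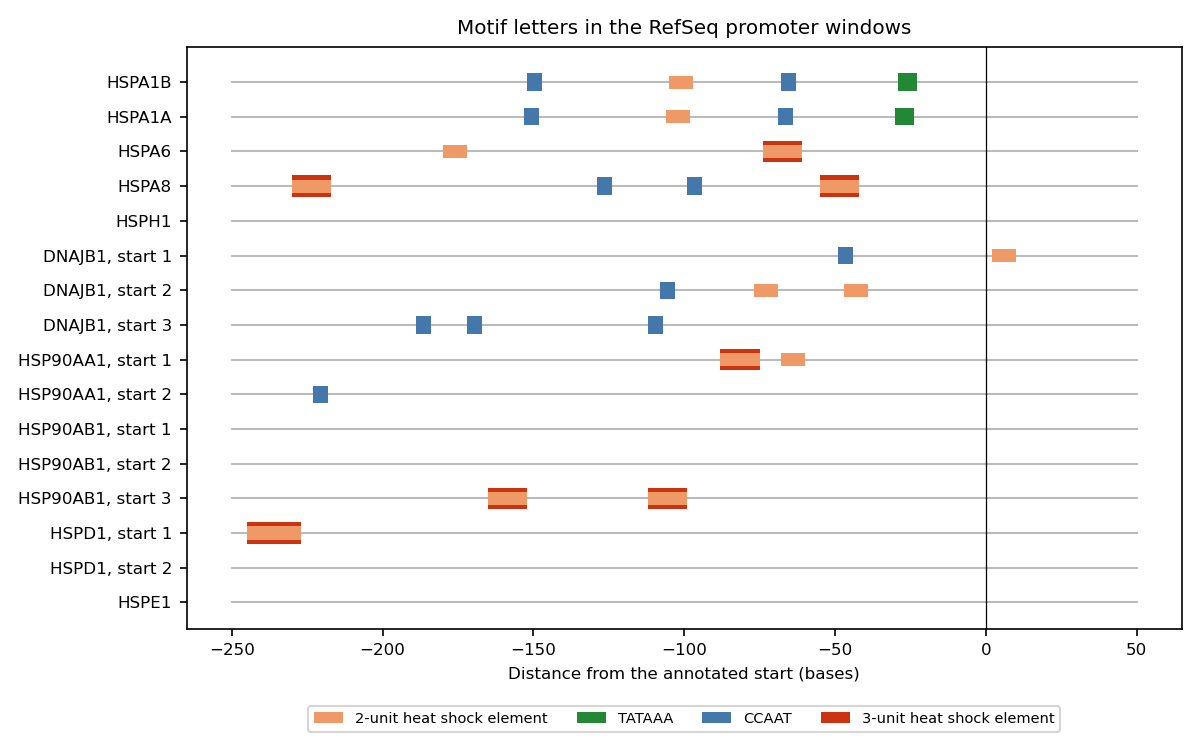
Positions of motif letters (bars) in each RefSeq promoter window of the heat shock genes (rows), by distance in bases from the annotated start (x axis, start at 0). Red bars are 3-unit and orange bars 2-unit heat shock elements, green bars TATAAA and blue bars CCAAT. HSPA1A and HSPA1B share a single 2-unit element near -105, 2 CCAAT boxes and a TATA box, and HSPA8, HSP90AB1 and HSPD1 each hold a pair of 3-unit elements.

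Among the other 161 genes with a 3-unit element in a window, 74 were tested. For d3 against Mock cells 1 of them passed, beside 1.27% of all tested genes, and their median log2 fold change was 0.02, beside 0.03 for all genes. For d0 against Mock cells 1 passed, beside 0.609%, for d28 against Mock cells 2, beside 1.45%, and for d28 against d0 1, beside 1.35%. The genes were DNAJB6 in each comparison with Mock cells and MGA in both comparisons of d28, named after their values were seen. DNAJB6 is described next.

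The rest of the chaperone system was described by 7 lists with 68 genes, of which 67 were tested. In the comparisons with Mock cells DNAJB6 alone passed, in each of the 3. DNAJB6 (ENSG00000105993) is a J-domain co-chaperone of HSP70 that suppresses the aggregation of polyglutamine proteins. Its normalized counts were 59.9, 55.4 and 44.3 in Mock cells and 75.9, 106 and 80.3 at d0. They were 82.4, 119 and 99.1 at d3, and 92.3, 87.9 and 107.8 at d28. All samples with MLL-AF4 lay above all Mock samples. Against Mock cells the log2 fold change was 0.69 for d0 (SE 0.19, adjusted p = 0.0367), 0.89 for d3 (SE 0.17, adjusted p = 6.92e-05) and 0.80 for d28 (SE 0.17, adjusted p = 4.92e-04). The call at d0 was lost with library sizes only (adjusted p = 0.516), DESeq2 (0.0840) and no filter (0.0629), and without Mock replicate 2 (0.137), Mock replicate 3 (0.245) or d0 replicate 2 (0.397). With library sizes only, the value at d28 turned to -0.54, above the median of all genes of -1.32. DNAJB6 was not called between any pair of days.

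The 250 bases before the start of DNAJB6, at chr7:157336754-157337003 on the plus strand, are shown with the 3-unit element in capitals, since it was the called gene of the lists that carried this element.
DNAJB6: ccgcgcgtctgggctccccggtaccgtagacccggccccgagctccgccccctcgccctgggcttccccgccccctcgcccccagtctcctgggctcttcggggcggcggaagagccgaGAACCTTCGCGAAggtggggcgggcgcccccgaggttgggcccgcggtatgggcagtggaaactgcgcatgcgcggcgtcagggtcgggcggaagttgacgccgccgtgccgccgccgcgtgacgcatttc

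Of the 8 other HSP70 and HSP110 genes none passed in any comparison, with medians against Mock cells of -0.28 for d0, -0.03 for d3 and -0.22 for d28. HSPA1L, which starts head to head with HSPA1A with 259 bases between them, had 25 counts over all samples and no call. HSPA2, a testis-enriched HSP70, had the smallest p of this list, with 12.3 ± 5.68 (SD, n = 3) at d28 against 21.4 ± 4.84 at d3 (log2 -0.61, adjusted p = 0.465). The 15 HSP70 co-chaperones, with DNAJB6 among them, had medians of 0.10, 0.23 and -0.07 in the same order, and the 9 HSP90 co-chaperones 0.24, 0.04 and 0.09. UNC45A, a chaperone of myosin that binds HSP90, had the smallest p among the latter, with 100.8 ± 7.16 at d3 against 70.3 ± 1.95 in Mock cells (log2 0.51, SE 0.16, adjusted p = 0.0699).

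The 8 tested small heat shock proteins had medians of -0.45, -0.42 and -0.42 on few reads, and HSPB8, which works with BAG3 in the clearance of aggregates, was at 3.47 ± 1.14 at d3 against 9.74 ± 3.5 in Mock cells (log2 -1.43, adjusted p = 0.209). The 8 subunits of the cytosolic chaperonin TRiC had medians of -0.10, -0.03 and 0.03. CCT3, a TRiC subunit, was higher at d28 (57.9 ± 3.15) than at d0 (36.2 ± 5.82), with a log2 fold change of 0.66 (SE 0.19, adjusted p = 0.0455), and its call was lost in 10 of 21 alternative settings, among them without any of the d0 or d28 replicates.

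The 14 mitochondrial chaperones and proteases had medians of -0.10, 0.16 and -0.02 against Mock cells. CLPX, the unfoldase of the matrix protease ClpXP, was higher at d3 (18.2 ± 6.22) and at d28 (17.3 ± 1.53) than at d0 (6.14 ± 1.45). Its log2 fold changes were 1.55 (SE 0.39, adjusted p = 0.0184) and 1.49 (SE 0.39, adjusted p = 0.020). It had only 4 to 6 counts per sample at d0, was at 13.9 ± 4.75 in Mock cells, and lost both calls without d0 replicate 1 or 2, the call at d3 without d3 replicate 3 and the call at d28 without d28 replicate 1 or 2 and with library sizes only. The 5 heat shock factors had medians of -0.03, 0.19 and 0.20 and no call, and HSF2, a partner of HSF1, had 36.4 ± 0.415 at d0 and 23.2 ± 0.0515 at d28 (log2 -0.64, adjusted p = 0.152).

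**Figure D5:**
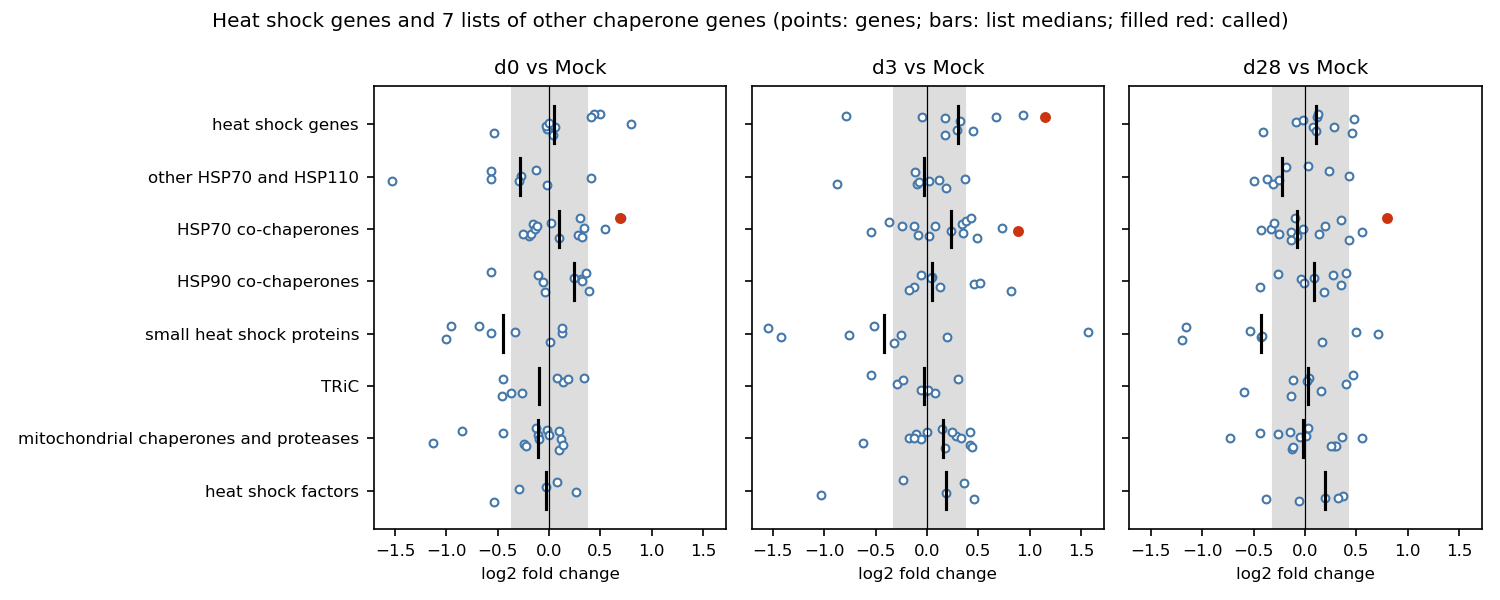
Log2 fold change against Mock cells (x axis) of the 10 heat shock genes and of 67 other chaperone genes in 7 lists (rows) at d0, d3 and d28. Points are genes, filled red where an adjusted p of 0.05 was passed, bars are list medians and the grey band is the interquartile range of all tested genes. HSPA1B at d3 and DNAJB6 at d0, d3 and d28 are the filled points.

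Processed pseudogenes of the members could take reads from them. There were 64 such entries, with 583 counts in all, 9.32% of the 6256 counts of the members. Of these, 9 were tested and 0 passed in any comparison. HSPD1P8, HSP90AB4P and HSPA8P4 had the most counts, with 31, 26 and 23 over the 12 samples. The pseudogenes of HSPA8 held 228 counts, those of HSPD1 144, of HSPE1 87, those with HSP90AB symbols 75, those with HSP90AA symbols 48 and that of DNAJB1 1, beside 1296, 857, 685, 377, 559 and 1081 counts of HSPA8, HSPD1, HSPE1, HSP90AB1, HSP90AA1 and DNAJB1 themselves.

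The genes whose profile over the 12 samples was most like that of HSPA1B were sought among the 8330 genes whose normalized count averaged 20 or more. Likeness was the root mean square difference of centred log2(normalized count + 1) values. SH3BP1 was closest with 0.178, followed by AL133215.2 (0.182), RPL4 (0.200), BNIP2 (0.200) and NSMCE3 (0.209), beside a spread of HSPA1B itself of 0.433. RPL4, a protein of the large ribosomal subunit, had means of 53.7 in Mock cells, 72.1 at d0, 96.1 at d3 and 77.9 at d28. The chromosomal positions of these genes, and of CLPX and MGA, were not examined. Whether a change of a whole chromosome region is behind their values was not tested.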

How the data were processed

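ATAC-Seq libraries of 12 samples were analysed, grouped by the sample labels into 4 groups of 3 biological replicates. The authors deposited whole-number counts of reads per gene entry, not normalized (52889 entries). The submitters' processing notes name bcl2fastq, Bowtie2, HTSeq and GRCh38. Versions, read shift, duplicate removal, the handling of reads that match several places and the stretch counted for a gene are not given in the sources used here, and each could change the counts of near-identical genes or of genes with long spans. Total counts ranged from 353430 to 3539937 per sample, and every value carries counting error of that depth, which leaves out errors of PCR copies.

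Counts were scaled and tested in R 4.3.3 with edgeR 4.0.16. Genes whose normalized count averaged more than 2 in any group were kept (27579), TMM factors and library sizes were computed on them, and a quasi-likelihood model with group as its only term was fitted to all 12 samples. P-values were adjusted by Benjamini-Hochberg over all tested genes, and a call is an adjusted p below 0.05. The SE of a log2 fold change is its absolute value over the root of F, and intervals are at 95%. The 6 comparisons were each day against Mock cells and the days against each other. P-values measure the spread between these samples. Replicates differed by more than counting noise over all genes, so each counted as a sample. Same-numbered samples showed no shared deviation, a check that counting noise limits.

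Alternatives were RLE factors, library sizes only, DESeq2 1.42.0, TMM without mitochondrial sequences, filterByExpr, no filter, a replicate block, the compared groups only and leaving out each sample. TMM on all entries, gene pairs fitted as single entries and shorter gene spans were added after the data were seen. The procedure was tested on simulated data. All 10 members matched RefSeq GRCh38.p14, which gave positions, spans and promoter sequences. Promoters were aligned with biopython 1.88, and matplotlib 3.10.9 (Python 3.11.15) drew the figures.

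The members and the 7 lists were chosen with earlier results of these data known. Named genes are all members, every called gene of the lists or else the gene with the smallest p of a list, the 3 pseudogenes with the highest mean count and the 5 genes most like a called member. DNAJB6 was also followed to its promoter after its values were seen.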

Additional observations from a re-analysis of the deposited data

Results flagged for a closer look

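The accessibility of HSPA1B relative to Mock cells differed between d3 and d28 by the test of that difference, with a log2 value of -0.67 for d28 against d3 (SE 0.17, edgeR quasi-likelihood test, adjusted p = 0.0301). All d28 samples, with a mean of 35.3 ± 1.78 normalized counts (SD, n = 3), lay below all d3 samples, with 56.1 ± 3.96. The call was lost in 10 of 22 alternative settings, among them DESeq2 (adjusted p = 0.473) and the omission of each d28 replicate in turn.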

How the results depend on the processing

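The number of members called changed most when counts were scaled by library sizes only. It became 0 for d3 against Mock cells, 10 for d28 against Mock cells, 9 for d28 against d3 and 9 for d28 against d0, all lower at d28, while the median of all genes moved to -0.34, -1.32, -0.99 and -0.88. Under this scaling log2 values turned, for d28 against Mock cells, to -0.94 in HSPA1A, -0.89 in HSPA1B, -1.30 in HSPA8, -1.28 in HSPH1, -1.24 in DNAJB1, -1.10 in HSP90AA1, -1.22 in HSP90AB1, -0.54 in DNAJB6, -1.18 in UNC45A, -0.96 in CCT3 and -1.01 in CLPX. For d28 against d3 they turned to -0.99 in HSPE1 and -0.53 in CCT3, and for d28 against d0 to -0.80 in HSPH1, -0.75 in DNAJB1, -0.84 in HSP90AB1, -0.79 in DNAJB6 and -0.24 in CCT3. Mitochondrial counts are part of these library sizes. The turned values given so far were called with or without this scaling, and values without a call turned as well. Among these, HSPA8 turned to -0.02 at d0 and to -0.04 at d3 against Mock cells. HSPH1, DNAJB1 and HSPD1 turned to -0.08, -0.19 and -0.19 at d3 against Mock cells. HSPA6 turned to -0.60 for d28 against d3 and to -0.77 for d28 against d0. For d28 against d3 the number called was 0 instead of 1 with RLE factors, TMM without mitochondrial sequences, DESeq2, filterByExpr and no filter, and it ranged from 0 to 1 with each sample left out, HSPA1B being the gene lost, and the cause was not tested. With TMM on all entries 1 member was called for d3 against d0. Members with an unadjusted p below 0.05 numbered 1 to 3 over the alternatives for d0 against Mock cells, 2 to 6 for d3 against Mock cells, 0 to 10 for d28 against Mock cells, 1 to 3 for d3 against d0, 2 to 9 for d28 against d3 and 0 to 9 for d28 against d0, the highest counts of the last 2 and of d28 against Mock cells being those with library sizes only.

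HSPA1B at d3 against Mock cells kept its call with each sample left out (log2 1.02 to 1.26, adjusted p at most 0.0195). The correlation of deviations between same-numbered replicates was between -0.15 and 0.08. No pairing by number was seen, but counting noise limits this check, so pairing is not excluded. The replicate block changed no call of a member, with 1 called for d3 against Mock cells and 1 for d28 against d3, and it lowered the genes called for d3 against Mock cells from 351 to 325. Levels per exonic length could not be computed, since RefSeq gave gene spans only. Depth limits HSPA6 most, with at most 10 counts per sample.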
